A study of Homo sapiens with 16 samples.

Results

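Actins and tubulins are among the most abundant proteins of a growing cell, and their mRNAs are among its most abundant transcripts. Described here are 10 such genes, chosen by symbol: the cytoplasmic actins ACTB and ACTG1, the alpha tubulins TUBA1A, TUBA1B and TUBA1C, the beta tubulins TUBB and TUBB4B, and the actin-binding genes PFN1, CFL1 and TMSB10. They are 10 of 24878 genes with values, and all 10 passed the filter on low values that left 16693 genes for testing. The symbols were taken from the families they belong to, among abundant genes.

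In the study, live cells of the human embryonic kidney line HEK293T had RNA near an enzyme tagged, and the tagged RNA was pulled down and sequenced. The cells transiently expressed BS2, an esterase that unmasks the probe AC-2, from a plasmid with a localization tag for the cytosol, the nucleus, the mitochondria or, as NIK3x-BS2, the nucleolus. Wild-type cells without a plasmid, given the same probe at 50 µM for 3 min, were the background. There were 3 non-transfected, 2 cytosolic, 3 nuclear, 2 mitochondrial and 2 nucleolar pull-downs, and 1 input (RNA without the pull-down) each for the non-transfected, cytosolic, nuclear and mitochondrial cells. Transfected cells received probe 24 h after lipofection, so transfection and the esterase cannot be told apart in any comparison with non-transfected cells. How many cells took up a plasmid is not given in the sources used here. Replicates are called biological, but no separate cultures are named: a p-value here reflects only how far these libraries scatter, and that scatter may be technical. Levels are given in CPM, a gene's reads scaled for library size and by the trimmed mean of M-values (TMM). Library totals on this scale ran from 847391 to 1.10e+06 CPM. All libraries went through capture of the poly(A) tail.

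Globular actin and tubulin dimers assemble into filaments and microtubules, and cells tune both pools partly through mRNA. The beta-actin mRNA is a classic localized message: a "zipcode" in its 3′ untranslated region (UTR) is bound by IGF2BP1 (ZBP1), which carries it to the leading edge of fibroblasts and to growth cones. Tubulin mRNAs are autoregulated: when free tubulin is abundant, TTC5 recognizes the first residues of a nascent tubulin on the ribosome and triggers decay of the mRNA being read. Profilin (PFN1) feeds actin monomers to growing filament ends, cofilin (CFL1) severs filaments, and thymosin beta-10 (TMSB10) sequesters monomers. All of these proteins are made on cytosolic ribosomes, so a mature message is mainly cytoplasmic.

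The starts of the coding sequences are shown because tubulin autoregulation reads this end of the protein, and because they show how alike the paralogues are. They come from GENCODE 29 on GRCh38, 30 bases each, 5′ to 3′, with the start codon in capitals and, for the beta tubulins, the 8-base start motif in capitals.
TUBB: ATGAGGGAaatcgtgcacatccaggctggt
TUBB4B: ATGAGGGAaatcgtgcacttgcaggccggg
TUBA1A, TUBA1B and TUBA1C: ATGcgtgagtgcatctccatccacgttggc
ACTB: ATGgatgatgatatcgccgcgctcgtcgtc
ACTG1: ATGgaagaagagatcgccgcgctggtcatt
The 3 alpha tubulins are identical over these bases. The 8-base motif is a match of letters, so its absence from the alpha tubulins says nothing about their autoregulation. ATGAGGGA, searched at the first base of the coding strand alone, opened the coding sequence of 22 of 19644 genes (0.112%), 7 of them tubulin genes. Over the whole coding sequence, identity was 91.2% for ACTB and ACTG1, 95.9% to 97.2% among the alpha tubulins and 84.4% for TUBB and TUBB4B. Reads from these stretches could be divided between paralogues in ways that are not given in the sources used here, so single members of a family are uncertain and family sums are given too. The 3′ UTRs of ACTB and ACTG1 matched at 46.5% of aligned bases.

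The ACTB zipcode is shown as the element by which that message is known to be sorted. It was found as CGGAC, a spacer of 10 to 25 bases and ACA on the coding strand, at most 30 bases in all, and it began at base 2 of the 3′ UTR, with both anchors in capitals.
ACTB zipcode: CGGACtatgacttagttgcgttACA
ACTB was the only member that held it. The pattern occurred in 586 of 18912 annotated 3′ UTRs (3.10%), and within the first 100 bases in 76 of 17650 (0.431%). A match is a description of letters and not a measured site.

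On GRCh38 the genes lie at chromosome 7, 5527147 to 5563784 (ACTB), chromosome 17, 81509971 to 81523847 (ACTG1), chromosome 6, 30720201 to 30725426 (TUBB) and chromosome 9, 137241213 to 137243707 (TUBB4B). TUBA1B (49127782 to 49131397), TUBA1A (49184796 to 49189324) and TUBA1C (49188736 to 49274603) sit in a cluster on chromosome 12, where TUBA1C overlaps TUBA1A on the opposite strand. PFN1 is at chromosome 17, 4945652 to 4949061, CFL1 at chromosome 11, 65823022 to 65862026, and TMSB10 at chromosome 2, 84905625 to 84906675. Whether counting used strand is not given in the sources used here, so reads of the TUBA1A and TUBA1C overlap cannot be assigned.

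Depth, read from the smallest step between values, was 6.34 to 20.0 M (mega) reads, and 3 reads were worth 0.162 to 0.461 CPM, far below any member value. The 8 HEK293T markers had reads in all 16 libraries, though SOX11 (0.0711 to 2.77 CPM) and PAX2 (3.15 to 5.995 CPM) were low. Their sum fell from 970.0 to 1078 CPM in non-transfected pull-downs to 462 to 693 in the others. Of 10 markers of other cell types, 9 had values and 5 reached 1 CPM. They summed to 12.9 to 24.9 CPM, of which COL1A1 alone gave 9.48 to 22.1. The 13 mitochondrially encoded mRNAs took 4.84% to 6.06% of CPM in the mitochondrial, 1.77% to 2.23% in the non-transfected and 2.58% to 3.29% in the nucleolar pull-downs. In nuclear and cytosolic pull-downs they took 0.725% to 0.998% and 0.845% to 0.931%, below the non-transfected ones. The mitochondrial and non-transfected inputs already differed, at 3.29% and 1.33%. The nuclear and cytosolic inputs were at 1.84% and 0.602%. MALAT1, a nuclear RNA, was at 1435 to 1849 CPM in the nuclear, 1322 to 1443 in the mitochondrial, 1040 to 1176 in the nucleolar, 440 to 491 in the cytosolic and 428 to 564 in the non-transfected pull-downs.

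In the non-transfected input, TUBA1B reached 1669 and ACTB 1595 CPM per kilobase (kb) of the annotated transcript. ACTG1 (1167), TMSB10 (837), TUBB (805) and PFN1 (571) followed, and CFL1 (342), TUBB4B (251), TUBA1C (216) and TUBA1A (131 CPM per kb) were lower. The 10 messages together took 1.11% to 1.32% of CPM in the 4 inputs. They took 0.880% ± 0.0253 (SD, n = 3) in the non-transfected pull-downs. Every transfected pull-down lay below that group, with means of 0.566% in cytosolic, 0.446% in nuclear, 0.442% in mitochondrial and 0.406% in nucleolar pull-downs.

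**Figure D1:**
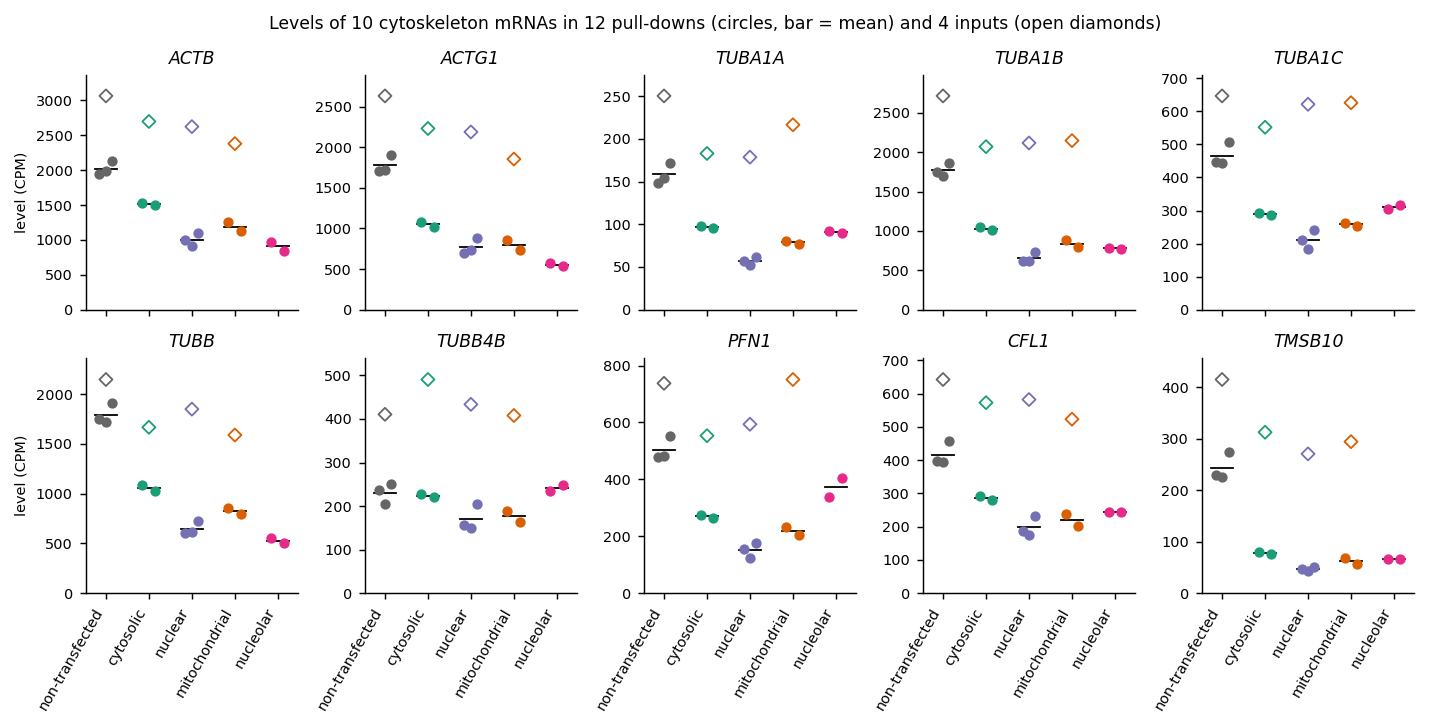
Level of each of the 10 mRNAs (CPM, linear axis from 0) in 3 non-transfected, 2 cytosolic, 3 nuclear, 2 mitochondrial and 2 nucleolar pull-downs (circles, with a bar at the mean) and in 4 single inputs (open diamonds). Inputs lie above the pull-downs of the same cells for all 10 genes, and transfected pull-downs lie below the non-transfected ones except for TUBB4B.

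The question of the first 4 comparisons is which RNAs each targeted esterase marks over background. The cytoskeleton messages were not among the RNAs that rose with any of the 4 constructs: 9, 10, 10 and 9 of the 10 were lower than in non-transfected pull-downs and none was higher. The 4 comparisons share the 3 non-transfected pull-downs, so they are not independent of each other. TMM-normalized CPM is a relative measure, so fewer tagged molecules of these mRNAs and more of other RNAs cannot be told apart.

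With the cytosolic construct, 9 of 10 were lower (limma, Benjamini-Hochberg adjusted p below 0.05 over all genes), where 22% of all 16693 genes tested were lower and 27.9% higher. The median log2 change of the 10 was -0.73, against 0.00 for all genes. With the nuclear construct, all 10 were lower (33.5% of all genes lower, 31.1% higher), at a median of -1.33 against -0.04. With the mitochondrial construct, all 10 were lower as well (26.4% lower, 27.8% higher), at a median of -1.04 against -0.01. With the nucleolar construct, 9 were lower (34.8% lower, 29.2% higher), at a median of -0.98 against -0.09. The groups did not overlap for 9, 9, 10 and 9 members in these comparisons. Overlap was not counted over all genes, so these counts cannot set the members apart.

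Most other short and abundant messages were lower too. Of the 10, 9 stood at 300 CPM or more in the non-transfected input and 7 have annotated transcripts under 2000 bases, where the median tested protein-coding gene has 3222. The 186 tested genes with both properties, including the members that have both, had median log2 changes of -0.761, -1.23, -0.948 and -0.997 in cytosolic, nuclear, mitochondrial and nucleolar pull-downs against non-transfected ones. Of those 186 genes, 87.6%, 98.4%, 84.4% and 81.7% were called lower. ACTG1, TUBA1C and TUBB have 2000 bases or more and TUBA1A was below 300 CPM, so this class leaves them out. The 305 genes with at least 300 CPM and 2000 bases or more had medians of -0.202, -0.647, -0.291 and -0.525. Of these 305 genes, 47.2%, 83%, 57.4% and 73.1% were called lower. The part of length and level in the members' changes was not tested.

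Both actins fell with every construct. ACTB, the beta-actin gene, stood at 1942, 1989 and 2138 CPM in non-transfected pull-downs and at 1536 and 1493 in cytosolic ones. It was at 996, 910 and 1105 CPM in nuclear, 1260 and 1120 in mitochondrial and 969 and 844 in nucleolar pull-downs. Every transfected pull-down was below every non-transfected one, and the cytosolic libraries stayed the nearest to background. The changes were -0.42 ± 0.0989 (SE) with the cytosolic construct (limma adjusted p = 0.00292), -1.01 ± 0.0885 with the nuclear (adjusted p = 1.80e-07), -0.77 ± 0.0989 with the mitochondrial (adjusted p = 1.57e-05) and -1.16 ± 0.0989 with the nucleolar construct (adjusted p = 1.38e-07). Under quantile normalization the cytosolic change of ACTB was 0.02 (adjusted p = 0.855) and the nuclear change -0.18 (adjusted p = 0.0528).

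ACTG1, the gamma-actin gene, fell further than ACTB in the point estimate of each comparison. It was at 1705, 1723 and 1901 CPM in non-transfected and 1081 and 1019 in cytosolic pull-downs. Nuclear pull-downs held 700, 728 and 886 CPM, mitochondrial ones 861 and 737, and nucleolar ones 571 and 534. The nucleolar libraries were the lowest, with no overlap with any other group. The changes against non-transfected were -0.76 ± 0.106, -1.21 ± 0.0948, -1.15 ± 0.106 and -1.68 ± 0.106 for cytosolic, nuclear, mitochondrial and nucleolar pull-downs (limma adjusted p = 4.26e-05 at most). ACTB and ACTG1 summed changed by -0.57, -1.10, -0.93 and -1.38 in the same order (limma adjusted p = 0.000404 at most).

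The alpha tubulins, which pair with beta tubulin in the microtubule dimer, fell together. TUBA1B, the most abundant of them, was at 1754, 1701 and 1867 CPM in non-transfected and 1053 and 1006 in cytosolic pull-downs. It was at 612, 611 and 732 CPM in nuclear, 881 and 795 in mitochondrial and 783 and 774 in nucleolar pull-downs. Nuclear libraries were the lowest and cytosolic ones the highest of the transfected groups. The changes were -0.78 ± 0.0925 (cytosolic), -1.45 ± 0.0827 (nuclear), -1.08 ± 0.0925 (mitochondrial) and -1.19 ± 0.0925 (nucleolar), each with a limma adjusted p of 8.89e-06 or less.

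TUBA1A fell from 149 to 172 CPM in non-transfected pull-downs to 51.7 to 61.6 in nuclear ones (-1.47 ± 0.0823, limma adjusted p = 2.13e-09), and to 90.0 to 92.0 in nucleolar ones (-0.79 ± 0.092). TUBA1C fell from 444 to 507 CPM to 183 to 241 in nuclear (-1.14 ± 0.0905) and to 304 to 317 in nucleolar pull-downs (-0.58 ± 0.101, limma adjusted p = 0.000148). For both, cytosolic and nucleolar libraries were close: the nucleolar minus cytosolic difference was -0.09 (95% interval -0.30 to 0.13) for TUBA1A and 0.10 (-0.13 to 0.34) for TUBA1C. Summed over the 3 genes, which does not depend on how reads were divided among them, alpha tubulin changed by -0.76, -1.39, -1.03 and -1.02 with the cytosolic, nuclear, mitochondrial and nucleolar constructs (limma adjusted p = 1.37e-05 at most).

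The beta tubulins parted. TUBB, the main beta tubulin of these cells, was at 1747, 1726 and 1914 CPM in non-transfected and 1085 and 1031 in cytosolic pull-downs. It was at 607, 612 and 727 CPM in nuclear, 852 and 799 in mitochondrial and 550 and 504 in nucleolar pull-downs. The nucleolar libraries were the lowest, and no transfected library reached a non-transfected one. TUBB changed by -0.76 ± 0.0936, -1.47 ± 0.0837, -1.12 ± 0.0936 and -1.77 ± 0.0936 with the cytosolic, nuclear, mitochondrial and nucleolar constructs (limma adjusted p = 1.29e-05 at most). TUBB and TUBB4B summed changed by -0.66, -1.31, -1.01 and -1.40 in the same order (limma adjusted p = 6.7e-05 at most).

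TUBB4B, which carries the same start motif, was at 236, 204 and 251 CPM in non-transfected pull-downs and at 227 and 221 in cytosolic ones. It was at 157, 149 and 205 CPM in nuclear, 188 and 164 in mitochondrial and 234 and 249 in nucleolar pull-downs. The cytosolic and nucleolar libraries lay within the range of the non-transfected ones. The cytosolic change was -0.04 (95% interval -0.30 to 0.23, limma adjusted p = 0.828) and the nucleolar change 0.07 (-0.19 to 0.34, adjusted p = 0.621), so neither was called. It was called lower in nuclear (-0.44 ± 0.111, adjusted p = 0.00285) and mitochondrial pull-downs (-0.38 ± 0.124, adjusted p = 0.0176). The nuclear call was lost when libraries were rescaled to the same total (-0.16, adjusted p = 0.224) and under quantile normalization (-0.24, adjusted p = 0.136), and the mitochondrial call without mitochondrial replicate 2 (-0.28, adjusted p = 0.166), without non-transfected replicate 1 (-0.36, adjusted p = 0.0514) and without non-transfected replicate 3 (-0.32, adjusted p = 0.0688).

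Among the actin-binding genes, TMSB10 fell the furthest of the 10 members with each construct. Thymosin beta-10 mRNA, at 496 bases the shortest member, was at 230, 225 and 274 CPM in non-transfected and 80.8 and 76.1 in cytosolic pull-downs. It was at 46.1, 43.2 and 51.6 CPM in nuclear, 68.2 and 56.7 in mitochondrial and 66.1 and 66.3 in nucleolar pull-downs. All 9 transfected libraries were far below the background libraries. The changes were -1.61 ± 0.110 (cytosolic), -2.35 ± 0.0980 (nuclear), -1.94 ± 0.110 (mitochondrial) and -1.85 ± 0.110 (nucleolar), with limma adjusted p of 4.24e-08 or less.

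PFN1, the profilin gene, was at 480, 482 and 553 CPM in non-transfected and 275 and 266 in cytosolic pull-downs. It was at 157, 122 and 176 CPM in nuclear, 233 and 204 in mitochondrial and 339 and 404 in nucleolar pull-downs. The nucleolar libraries were the highest of the transfected groups, without overlap. The changes were -0.89 ± 0.131 (cytosolic), -1.74 ± 0.117 (nuclear), -1.21 ± 0.131 (mitochondrial) and -0.44 ± 0.131 (nucleolar, limma adjusted p = 0.00821). The nucleolar call was lost without nucleolar replicate 1 (-0.32, adjusted p = 0.122) and under quantile normalization (-0.27, adjusted p = 0.123).

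CFL1, the cofilin gene, ran from 395 to 457 CPM in non-transfected, 280.05 to 291 in cytosolic, 175 to 232 in nuclear, 202 to 237 in mitochondrial and 243 to 244 in nucleolar pull-downs. It changed by -0.54 ± 0.113, -1.08 ± 0.101, -0.92 ± 0.113 and -0.77 ± 0.113 with the cytosolic, nuclear, mitochondrial and nucleolar constructs (limma adjusted p = 0.00112 at most).

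**Figure D2:**
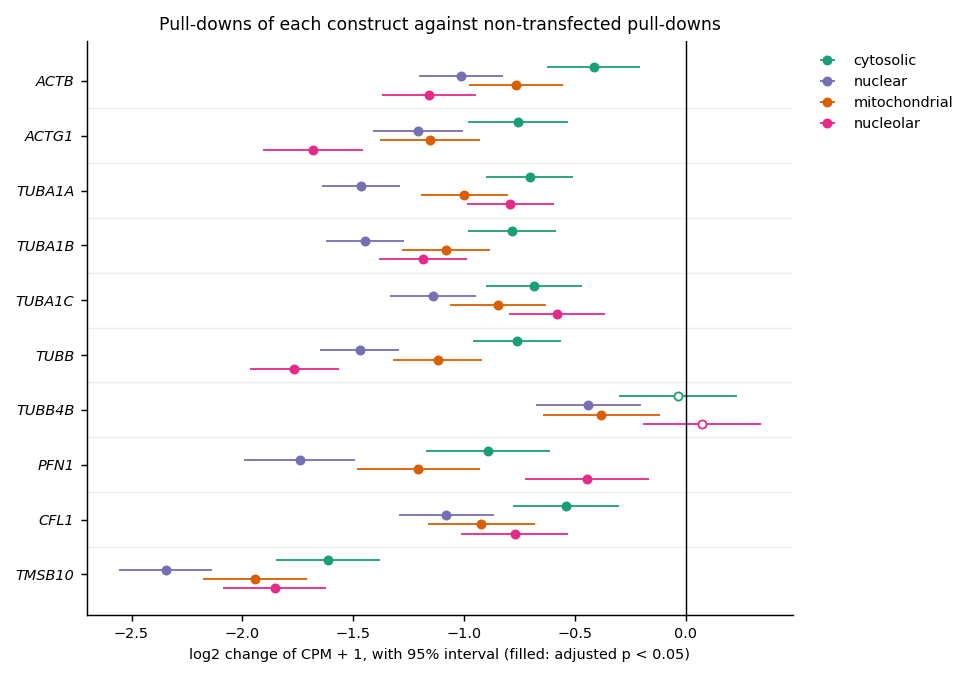
Log2 change of CPM + 1 (horizontal axis) of each mRNA in cytosolic, nuclear, mitochondrial and nucleolar pull-downs against the 3 non-transfected pull-downs, with 95% intervals from limma; filled points have an adjusted p below 0.05. Nearly all points lie left of 0, TMSB10 the furthest (-1.61 to -2.35), and the cytosolic and nucleolar points of TUBB4B are open and near 0.

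Comparing the constructs with each other removes the non-transfected libraries and sets transfected cells against transfected cells. All 10 messages were lower in nuclear than in cytosolic pull-downs, where 22.2% of all genes were lower and 9.84% higher. The median difference was -0.63, against -0.11 for all genes. No member's groups overlapped, but overlap was not counted over all genes. PFN1 differed the most (-0.85 ± 0.131, limma adjusted p = 0.000457), then TUBA1A (-0.76 ± 0.092), TMSB10 (-0.73 ± 0.110) and TUBB (-0.71 ± 0.0936). TUBB4B differed the least (-0.40 ± 0.124, adjusted p = 0.0222). The 186 short abundant genes had a median of -0.50 in the same comparison, and 83.3% of them were lower. For the 305 longer abundant genes these values were -0.435 and 85.2%. ACTG1 lost its call without cytosolic replicate 1 (-0.41, adjusted p = 0.0653), and TUBB4B lost its call without cytosolic replicate 1 or 2 or nuclear replicate 2 (adjusted p = 0.0893 to 0.125). The count fell to 6 when libraries were rescaled to the same total and to 4 under quantile normalization.

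No member was called between mitochondrial and cytosolic pull-downs with limma, where 0.174% of all genes were lower and 0.599% higher. All 10 were lower in both mitochondrial libraries than in both cytosolic ones, 9 had an unadjusted limma p below 0.05, and the differences ran from -0.40 to -0.16. Neither count was made over all genes, and the members share these libraries, so neither stands in for a call. The intervals for ACTB (-0.58 to -0.12), TUBB (-0.58 to -0.14) and TMSB10 (-0.59 to -0.07) give the sizes that these libraries allow.

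Mitochondrial pull-downs held more than nuclear ones of 6 members (16.7% of all genes higher, 9.36% lower): TUBA1A, TUBA1B, TUBA1C, TUBB, PFN1 and TMSB10. PFN1 (0.54 ± 0.131, limma adjusted p = 0.00881) and TUBA1A (0.47 ± 0.092, adjusted p = 0.00283) differed the most. ACTB (0.25, 95% interval 0.04 to 0.46) and ACTG1 (0.05, -0.17 to 0.28) were not called. The count was 0 after rescaling to the same total, 0 in a fit of these groups alone, 2 under quantile normalization and 1 without mitochondrial replicate 1. TUBA1C also lost its call without mitochondrial replicate 2 or nuclear replicate 2 (adjusted p = 0.119 and 0.170), and TMSB10 without nuclear replicate 2 (adjusted p = 0.0573). Without nuclear replicate 3, ACTB (0.32, adjusted p = 0.0254) and CFL1 (0.28, adjusted p = 0.0453) were called higher as well.

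The nucleolar pull-downs split the members. Against nuclear pull-downs, 7 members were higher (15.9% of all genes) and 2 lower (17.2%). PFN1 was 2.46-fold higher (1.30 ± 0.131, limma adjusted p = 6.58e-06), at 339 and 404 CPM against 122 to 176. TUBA1A (0.67 ± 0.092, adjusted p = 8.78e-05), TUBA1C (0.56 ± 0.101), TUBB4B (0.51 ± 0.124) and TMSB10 (0.49 ± 0.110) were higher too, while ACTG1 (-0.47 ± 0.106, adjusted p = 0.00342) and TUBB (-0.30 ± 0.0936, adjusted p = 0.0252) were lower. ACTB was not called (-0.15, 95% interval -0.36 to 0.07), but it was called lower when libraries were rescaled to the same total (-0.34, adjusted p = 0.00606) and under quantile normalization (-0.62, adjusted p = 0.000134). TUBA1B (0.26) and CFL1 (0.31) passed narrowly, and each lost its call without nucleolar replicate 1 or 2 and without nuclear replicate 1 or 2, with adjusted p of 0.0889 to 0.178. Without nucleolar replicate 2, 4 members were higher and none lower, and TUBB4B (0.47, adjusted p = 0.0642), ACTG1 (-0.43, adjusted p = 0.0527) and TUBB (-0.23, adjusted p = 0.212) were no longer called. TUBB also lost its call without nucleolar replicate 1 (-0.36, adjusted p = 0.0543) and without nuclear replicate 3 (-0.21, adjusted p = 0.0524).

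Against cytosolic pull-downs, nucleolar ones were lower for 4 members (22.9% of all genes) and higher for 1 (10.8%). TUBB (-1.005 ± 0.102, limma adjusted p = 1.48e-05), ACTG1 (-0.92 ± 0.116), ACTB (-0.74 ± 0.108) and TUBA1B (-0.40 ± 0.101) were lower, and PFN1 was higher (0.45 ± 0.143, adjusted p = 0.0256). The call for PFN1 was lost without either cytosolic library and without nucleolar replicate 2 (adjusted p = 0.0877 to 0.224). That for TUBA1B was lost without cytosolic replicate 1 or nucleolar replicate 2 (adjusted p = 0.0575 to 0.0699). Against mitochondrial pull-downs, 3 members were lower (14.2% of all genes) and 2 higher (7.59%). The lower ones were TUBB (-0.65 ± 0.102), ACTG1 (-0.53 ± 0.116) and ACTB (-0.39 ± 0.108, adjusted p = 0.0187), and the higher ones PFN1 (0.76 ± 0.143, adjusted p = 0.00223) and TUBB4B (0.45 ± 0.136, adjusted p = 0.0274). Without mitochondrial replicate 1 or nucleolar replicate 2, ACTB and ACTG1 were not called, and TUBB4B was not called whichever of these 4 libraries was left out (adjusted p = 0.0506 to 0.185).

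**Figure D3:**
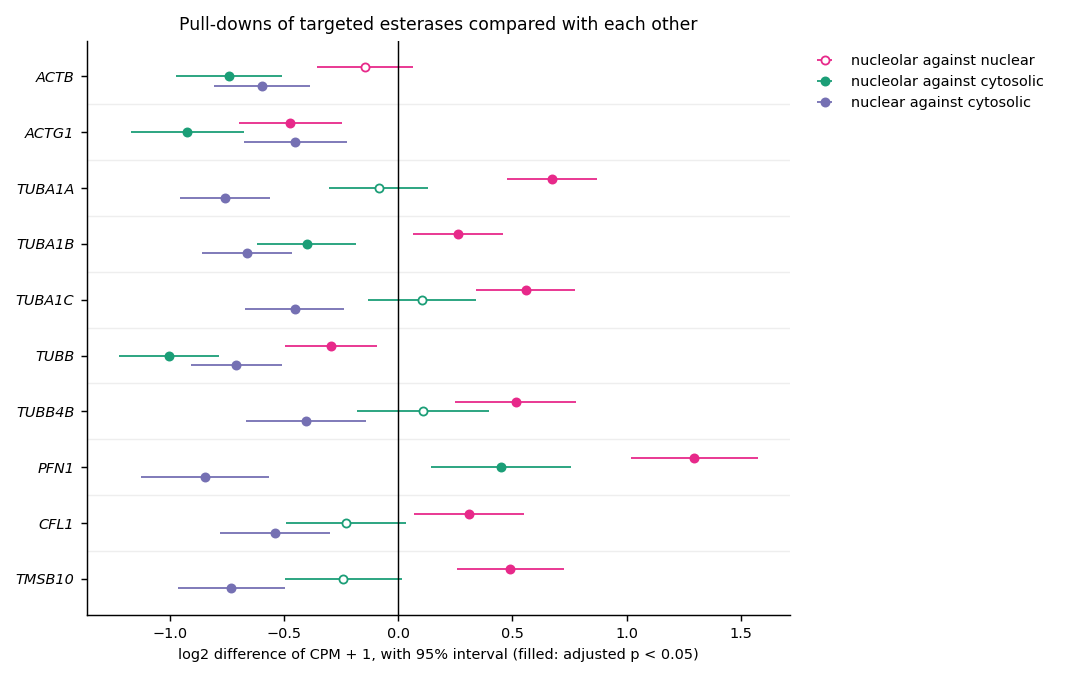
Log2 difference of CPM + 1 between nucleolar and nuclear (pink), nucleolar and cytosolic (green) and nuclear and cytosolic pull-downs (violet) for each mRNA, with 95% intervals from limma; filled points have an adjusted p below 0.05. The violet points all lie below 0 (-0.85 to -0.40), while pink points run from ACTG1 at -0.47 to PFN1 at 1.30.

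Rescaling every library to the same total sets the TMM scaling aside. It moved the median of all genes from -0.04 to 0.19 for nuclear against non-transfected, from -0.11 to 0.10 for nuclear against cytosolic, from 0.05 to -0.17 for mitochondrial against nuclear and from -0.04 to -0.21 for nucleolar against nuclear pull-downs. The members' medians became -1.05, -0.38, 0.06 and 0.20, so under this rescaling they stayed on the same side of all genes. The share of higher among all calls moved with it, from 48.1% to 65.9%, from 30.7% to 76.6%, from 64.2% to 15.4% and from 48% to 23.4%. Median-of-ratios scaling moved that share from 32% to 53.5% for nucleolar against cytosolic and from 34.9% to 57.3% for nucleolar against mitochondrial pull-downs. Under quantile normalization the members' median for mitochondrial against nuclear pull-downs was -0.0274, against 0.0238 for all genes, so there it changed side.

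Ordering each gene over the 5 pull-down groups, non-transfected libraries were the highest for every member except TUBB4B, whose nucleolar mean was the highest by 0.07. The lowest group was nuclear for TUBA1A, TUBA1B, TUBA1C, TUBB4B, PFN1, CFL1 and TMSB10, and nucleolar for ACTB, ACTG1 and TUBB. Many neighbours in these orders were not told apart. For ACTB the steps from cytosolic to mitochondrial (limma adjusted p = 0.161), mitochondrial to nuclear (0.0789) and nuclear to nucleolar (0.286) were not called. For TUBB4B no neighbouring step was called. For PFN1 all steps were called except that from cytosolic to mitochondrial (adjusted p = 0.313).

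The balance of paralogues was read as ratios of CPM that are not corrected for length. The pairs were chosen after the levels were seen, so the values are a description with no test. The ratio of ACTB to ACTG1 was 1.14 ± 0.0149 (SD, n = 3) in non-transfected pull-downs. It was 1.42 and 1.47 in cytosolic, 1.25 to 1.42 in nuclear, 1.46 and 1.52 in mitochondrial and 1.58 and 1.70 in nucleolar pull-downs, so all 9 transfected libraries lay above the non-transfected ones. In the inputs the ratio was 1.16 without transfection and 1.20 to 1.28 with it.

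TUBB4B made up 11.4% ± 0.694 (SD, n = 3) of TUBB plus TUBB4B in non-transfected pull-downs. Its share was 17.3% and 17.6% in cytosolic, 19.6% to 22.01% in nuclear, 17.1% and 18.1% in mitochondrial and 29.9% and 33.05% in nucleolar pull-downs, all above the non-transfected libraries. The input shares were 16.1% without and 19.0% to 22.7% with transfection, so the order of transfected above non-transfected was present before the pull-down. TUBA1B was the main alpha tubulin throughout, at 74.0% ± 0.657 of the 3 in non-transfected and 65.6% to 73.01% in transfected pull-downs. The nucleolar libraries, at 65.6% and 66.4%, had the lowest shares of TUBA1B.

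**Figure D4:**
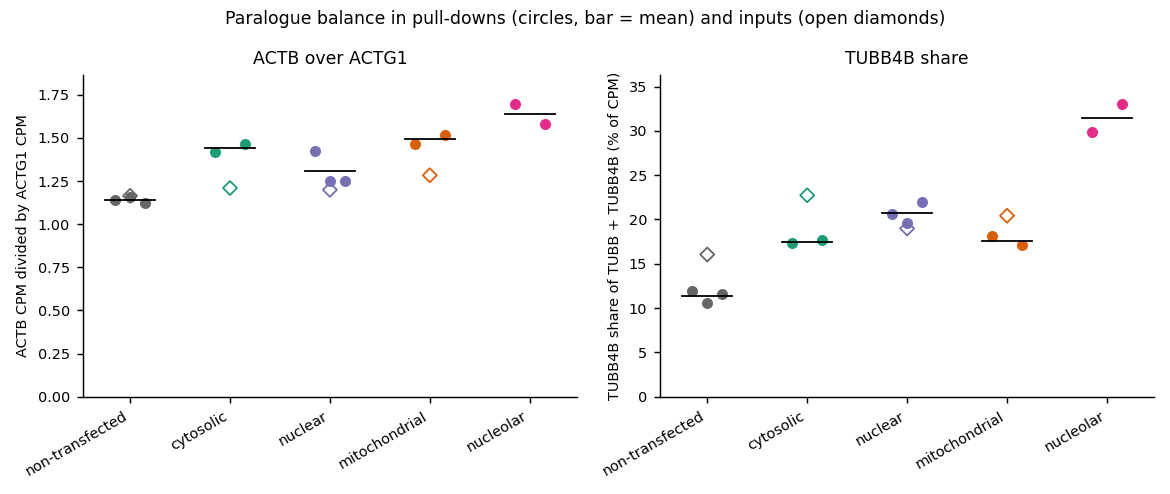
Left, ACTB CPM divided by ACTG1 CPM; right, TUBB4B as a percentage of TUBB plus TUBB4B CPM, in pull-downs (circles, bar at the mean) and single inputs (open diamonds); both axes start at 0. Non-transfected pull-downs are the lowest in both panels (1.14 and 11.4%) and nucleolar ones the highest (1.64 and 31.5%).

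The inputs, 1 library per construct, give the levels of these messages without the pull-down. All 10 were lower in pull-downs than in inputs of the same kind of cell, in a fit with the construct as covariate over 10 pull-downs and 4 inputs (29% of all genes lower, 36.3% higher). The median difference was -1.12, against 0.08 for all genes. TMSB10 was 3.62-fold lower (-1.86 ± 0.190, limma adjusted p = 1.20e-06) and PFN1 2.51-fold lower (-1.33 ± 0.174), while TUBB (-0.85 ± 0.145) and ACTB (-0.96 ± 0.114) differed the least. The 186 short abundant genes had a median of -0.83 here and the 305 longer abundant ones -0.0858. Tested protein-coding genes of 5000 bases or more had a median of 0.45, with 62.8% of 3459 higher.

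Across the 10 members, Spearman's rho of this difference with transcript length was 0.903 over the 10 genes and 0.867 without TMSB10, as a description over genes that share all libraries. Of the 14 comparisons this was the largest rho with length. For the changes against non-transfected pull-downs it was 0.442, 0.358, 0.382 and -0.0424 with the cytosolic, nuclear, mitochondrial and nucleolar constructs, and 0.233, 0.117, 0.150 and -0.433 without TMSB10. The length of the 3′ UTR (0.673), coding length (0.220) and GC content (-0.236) gave values nearer 0. The lengths are those of the annotated transcript chosen as principal, which need not be the form expressed.

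**Figure D5:**
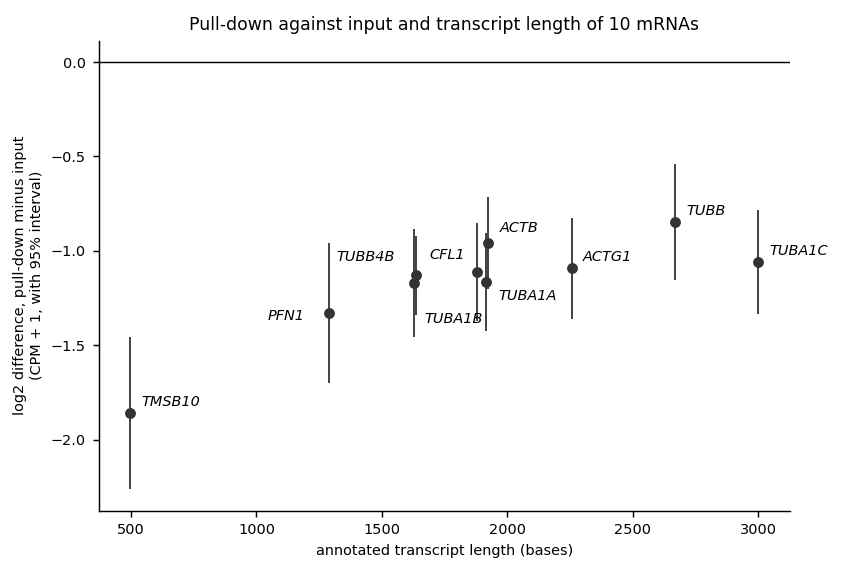
Log2 difference between pull-downs and inputs (vertical axis, CPM + 1, with 95% intervals from limma) against annotated transcript length (bases, horizontal axis) for the 10 mRNAs. TMSB10, at 496 bases, is the lowest at -1.86, and the members above 2000 bases lie between -1.09 and -0.85.

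All 10 members were already below their input in non-transfected pull-downs, and the point estimates were lower still in cytosolic, nuclear and mitochondrial ones. ACTB in non-transfected pull-downs was 0.52 to 0.66 below its input on the log2 scale, against 0.81 to 0.85 in cytosolic, 1.25 to 1.53 in nuclear and 0.92 to 1.09 in mitochondrial pull-downs against their own inputs. TMSB10 was 1.71-fold lower than its input in non-transfected cells and 3.95-, 5.68- and 4.67-fold lower in cytosolic, nuclear and mitochondrial cells. TUBB was close to its input without transfection (1.20-fold lower) and 2.86-fold lower with the nuclear construct. No nucleolar input was used here, so this step could not be taken for the nucleolar pull-downs.

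The transfected inputs were themselves lower for most members: 9 of 10 stood below the non-transfected input with each of the 3 constructs, at median log2 differences of -0.30 (cytosolic), -0.25 (nuclear) and -0.32 (mitochondrial), where 50.9% to 52.9% of all genes stood below. These are differences between single libraries, with no test. The exceptions were TUBB4B in the cytosolic (0.26) and nuclear (0.08) inputs and PFN1 in the mitochondrial input (0.03).

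Input-corrected changes subtract the difference between inputs from that between pull-downs, with the single inputs assumed to vary like the pull-downs. All 10 members had values below 0 with each of the 3 constructs, at medians of -0.39, -1.03 and -0.71 for the cytosolic, nuclear and mitochondrial ones. Passing the test, 1 member was lower with the cytosolic construct (2.77% of all genes lower, 5.74% higher), TMSB10 at -1.21 ± 0.199 (limma adjusted p = 0.00361). An unadjusted limma p below 0.05 was found for 5 members, a count not made over all genes. With the nuclear construct 9 were lower (8.94% lower, 7.63% higher), from ACTB at -0.79 ± 0.177 to TMSB10 at -1.73 ± 0.193, and TUBB4B was not called (-0.52, 95% interval -0.99 to -0.05). Under quantile normalization the nuclear calls for ACTB (-0.18, adjusted p = 0.450), ACTG1 (-0.31, adjusted p = 0.277) and TUBA1B (-0.42, adjusted p = 0.142) were lost. With the mitochondrial construct 6 were lower (3.4% lower, 6.16% higher): TUBA1A, TUBA1B, TUBA1C, TUBB, PFN1 and TMSB10. The actins were not called there, ACTB at -0.40 (adjusted p = 0.174) and ACTG1 at -0.65 (adjusted p = 0.0511). Without mitochondrial replicate 2, TUBA1B (-0.67, adjusted p = 0.0508) and TUBB (-0.64, adjusted p = 0.0657) were not called, and neither was under quantile normalization (-0.37 and -0.51, adjusted p = 0.246 and 0.101). Conversely, ACTG1 was called without mitochondrial replicate 1 (-0.76, adjusted p = 0.0462), and TUBB4B was called with the nuclear construct without nuclear replicate 3 (-0.66, adjusted p = 0.0102). Over the 186 short abundant genes the input-corrected medians were -0.477, -0.997 and -0.622, and 22.6%, 79% and 42.5% of them were lower with the cytosolic, nuclear and mitochondrial constructs. Over the 305 longer abundant genes the medians were -0.0905, -0.439 and -0.151, and 10.5%, 47.5% and 13.8% were lower.

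The rest of the cytoskeleton was read from 10 lists of 98 other genes, of which 90 were tested. Against non-transfected pull-downs, 29 were lower and 22 higher with the cytosolic construct, 60 and 21 with the nuclear, 41 and 18 with the mitochondrial, and 49 and 19 with the nucleolar construct. Over all genes tested, 22%, 33.5%, 26.4% and 34.8% were lower and 27.9%, 31.1%, 27.8% and 29.2% higher in these comparisons, so the shares of listed genes that were higher lay below those of all genes. The list medians were -0.08, -0.50, -0.22 and -0.29, nearer to all genes than the 10 members were. Unlike the members, the listed genes were not limited to abundant ones. The 491 tested genes with at least 300 CPM in the non-transfected input had medians of -0.415, -0.827, -0.496 and -0.635. The part of level in this contrast was not tested. The other genes for monomer binding, severing and capping (15 tested) were lower for 7, 14, 8 and 13 with the cytosolic, nuclear, mitochondrial and nucleolar constructs. Those of the Arp2/3 complex, the nucleator of branched filaments (9 tested), were lower for 3, 8, 5 and 8. TMSB15A, a relative of TMSB10, fell from 12.3 ± 2.41 to 4.16 ± 0.419 CPM with the nuclear construct (-1.36 ± 0.188, limma adjusted p = 1.80e-05). TMSB15A also fell with the nucleolar construct, to 2.44 ± 0.753 CPM (-1.95 ± 0.210, adjusted p = 1.43e-06). With the cytosolic construct it fell to 5.25 ± 0.913 CPM (-1.08 ± 0.210, adjusted p = 0.000646).

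Some relatives moved the other way. ACTA2, the smooth muscle actin gene, stood at 7.30 ± 1.74 CPM in non-transfected and 32.9 ± 0.171 in cytosolic pull-downs (2.05 ± 0.155, limma adjusted p = 1.28e-07), and at 30.02 to 35.2 CPM on average with the other constructs. Its inputs ran from 7.79 CPM without to 20.4 to 37.6 with transfection, so the same order was present before the pull-down. MAP4, a microtubule-stabilizing protein gene, rose from 262 ± 12.8 to 811 ± 93.9 CPM with the nuclear construct (1.62 ± 0.0878, adjusted p = 1.49e-09), and its inputs stood at 241 CPM without and 279 to 553 with transfection.

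The tubulin folding cofactors, which build the dimer, and TTC5 divided likewise: with each construct 5 of the 7 were lower and 2 higher than in non-transfected pull-downs, the latter close to the 27.8% to 31.1% of all genes that were higher. TBCE, a cofactor for alpha tubulin, was at 29.1 ± 5.16 CPM in non-transfected and 119.6 ± 6.39 in nucleolar pull-downs (2.02 ± 0.151, limma adjusted p = 3.67e-08), with inputs at 16.97 CPM without and 41.1 to 66.4 with transfection. TBCA, a cofactor for beta tubulin, fell to 60.1 ± 9.95 CPM from 187 ± 6.24 with the nuclear construct (-1.63 ± 0.110, adjusted p = 1.41e-08). ARL2, a small GTPase partner of these cofactors, fell with the mitochondrial construct (-1.60 ± 0.142, limma adjusted p = 4.72e-07). ARL2 also fell with the nuclear (-1.52 ± 0.127, adjusted p = 1.19e-07) and cytosolic constructs (-1.14 ± 0.142, adjusted p = 1.38e-05). TTC5 was measured at 44.2 ± 0.811 CPM in non-transfected and 27.0 ± 1.04 in nucleolar pull-downs. SRF, the transcription factor that drives actin genes, and its cofactors MRTFA and MRTFB were higher for all 3 with the cytosolic, nuclear and mitochondrial constructs and for 2 with the nucleolar construct, where 27.8% to 31.1% of all genes were higher. After correction for the inputs limma called none of the 3 with the cytosolic, nuclear or mitochondrial construct, and 1 (SRF, nuclear, 0.50) had an unadjusted p below 0.05.

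Genes outside the cytoskeleton ran close to the mean of the 10 members. Among 5059 other genes with a mean of at least 50 CPM, the 5 whose log2 levels ran closest to the members' mean over the 12 pull-downs were RPL32 (Pearson r = 0.995), AHCY, COX6A1, EBP and SLC25A6 (r = 0.993). RPL32 encodes a ribosomal protein and COX6A1 a subunit of cytochrome c oxidase. RPL32 averaged 1311 CPM in non-transfected, 671 in cytosolic, 379 in nuclear, 517 in mitochondrial and 489 in nucleolar pull-downs. Among the members, TUBA1B (0.995) and CFL1 (0.989) followed the mean of the other 9 most closely and TUBB4B (0.622) the least. These are descriptions over 12 libraries in 5 groups.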

How the data were processed

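Pull-down and input RNA from 16 HEK293T libraries was analysed from a single table. The values the authors deposited are log2 of TMM-normalized CPM with a small prior added, 1 value per gene and library. The lowest log2 value was the same in every library and gave a prior of 0.166 CPM, which was subtracted. The submitters' processing notes name STAR 2.7.9a, Salmon 1.4.0, limma and GRCh38, and the annotation release and the role of each tool are not given in the sources used here. Of 39823 entries, 24917 had values, and 39 repeated entries were dropped. Whole reads were recovered for 69.1% to 84.2% of values (tolerance 0.01 reads), too few for a count test. Genes with at least 1 CPM in 2 of 16 libraries (16693) entered a limma 3.58.1 model (trend, R 4.3.3) on the log2(CPM + 1) scale, and p-values were adjusted over all of them (Benjamini-Hochberg). Fold changes on this scale understate those of low genes.

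The 12 pull-downs shared a fit with 1 coefficient per group, and input-corrected values came from a fit of all 16 libraries. The 10 members were named in every comparison. From the other lists, up to 4 rises and 4 falls per comparison with a mean of at least 5 CPM could be named, and TTC5, SRF, MRTFA and MRTFB were added after their values were seen. The members and lists were chosen with earlier results of these data known. Replicate numbers did not pair the samples (correlations of deviations -0.163 to 0.155 over 21 pairs). Length and level classes were chosen after seeing the data. Lengths and sequences are from GENCODE 29 (1 principal transcript per gene). Scripts ran in Python 3.11.15 with pandas 2.3.3, scipy 1.17.1 and matplotlib 3.10.9 and were tested on simulated data.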

Additional observations from a re-analysis of the deposited data

Results flagged for a closer look

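Changes against non-transfected cells differed between pull-downs and inputs for 16 combinations of gene and construct, by a test of the difference itself (limma interaction term, adjusted p below 0.05 over all genes), which rests on 1 input per construct. These are the input-corrected calls given above. Of all genes, 2.77%, 8.94% and 3.4% were lower with the cytosolic, nuclear and mitochondrial constructs. Of the 186 short abundant genes, 22.6%, 79% and 42.5% were lower. With the cytosolic construct this held for TMSB10, by -1.21 on the log2 scale. With the nuclear construct it held for ACTB (-0.79), ACTG1 (-0.94), TUBA1A (-0.98), TUBA1B (-1.09), TUBA1C (-1.08), TUBB (-1.26), PFN1 (-1.43), CFL1 (-0.94) and TMSB10 (-1.73). With the mitochondrial construct it held for TUBA1A (-0.79), TUBA1B (-0.74), TUBA1C (-0.80), TUBB (-0.69), PFN1 (-1.23) and TMSB10 (-1.45). In each case the gene was lower in the pull-down comparison than in the input comparison. Under quantile normalization the nuclear calls for ACTB, ACTG1 and TUBA1B (-0.18, -0.31 and -0.42) and the mitochondrial calls for TUBA1B and TUBB (-0.37 and -0.51) were lost.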

How the results depend on the processing

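Over 140 single-gene results and all alternatives, 2273 values kept direction and side of the threshold, 103 lost a call, 31 gained one and 31 turned sign. Counts of called members moved by over 1.5 times in 29 repeats and not in 439. The causes were not tested. The counts against non-transfected pull-downs, lower for 9, 10, 10 and 9 members, moved by at most 1.5 times under every alternative run.

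Rescaled to the same total, 6 members were lower in nuclear than cytosolic pull-downs, none was higher in mitochondrial than nuclear and 4 were higher in nucleolar than nuclear ones. Mitochondrial minus nuclear values turned for ACTB (-0.0163), ACTG1 (-0.21), TUBB4B (-0.20) and CFL1 (-0.11). Under quantile normalization these 3 counts were 4, 2 and 4, with 1 member lower in mitochondrial than nuclear. ACTB, cytosolic against non-transfected, turned to 0.0215, TUBA1A, nucleolar against cytosolic, to 0.0479, and TUBA1B, nucleolar against nuclear, to -0.18. Mitochondrial minus nuclear values were -0.19 (ACTB), -0.36 (ACTG1), -0.0107 (TUBA1B), -0.0442 (TUBB), -0.20 (TUBB4B) and -0.10 (CFL1). Median-of-ratios scaling turned TUBA1A, nucleolar against cytosolic (0.059), ACTG1 (-0.0158) and TUBB4B (-0.0104), mitochondrial against nuclear, and TUBA1B, nucleolar against mitochondrial (0.0098), and called 4 members higher in nucleolar than mitochondrial pull-downs.

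Without the filter, 0 members were higher in nucleolar than cytosolic, 1 lower in nucleolar than nuclear and 1 higher in nucleolar than mitochondrial pull-downs. With only the compared groups, 0 were higher in mitochondrial than nuclear and 1 lower in nucleolar than nuclear. Summing members within a family turned TUBB4B in nucleolar pull-downs against non-transfected (-1.40), cytosolic (-0.74), nuclear (-0.0855) and mitochondrial ones (-0.38), TUBA1C against cytosolic (-0.26) and TUBA1B against mitochondrial ones (0.0077), since the sum follows the abundant paralogue.

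Replicate numbers did not pair the libraries. With the replicate number as a block, 3 members were lower in mitochondrial than cytosolic pull-downs, and TUBB4B, cytosolic against non-transfected, was 0.0655; a block by library code left 1 member lower in nucleolar than nuclear. The inputs are single libraries, so no block was fitted for comparisons that use them.

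Leaving out 1 library at a time, TUBB4B ran from -0.12 to 0.0272 (cytosolic against non-transfected), -0.0108 to 0.14 (nucleolar against non-transfected) and -0.0379 to 0.20 (mitochondrial against nuclear), ACTG1 from -0.057 to 0.17 (mitochondrial against nuclear) and TMSB10 from -0.0422 to 0.22 (nucleolar against mitochondrial). Member counts ran from 0 to 1 (higher, nucleolar against cytosolic), 1 to 8 (higher, mitochondrial against nuclear), 0 to 2 (lower) and 4 to 7 (higher, nucleolar against nuclear), and 1 to 3 (lower) and 1 to 1 (higher, nucleolar against mitochondrial). For the input-corrected changes the single inputs could not be left out. For pull-downs against inputs each input was left out in turn. What depth limits was not tested.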

Other observations

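The other cytoskeleton lists are given as counts, to be read against the 22%, 33.5%, 26.4% and 34.8% of all genes that were lower and the 27.9%, 31.1%, 27.8% and 29.2% that were higher with the cytosolic, nuclear, mitochondrial and nucleolar constructs; many counts are near or below these shares. Of 5 genes of non-muscle myosin, the motor that contracts actin filaments, 2, 5, 3 and 2 were lower than in non-transfected pull-downs with the cytosolic, nuclear, mitochondrial and nucleolar constructs. Of 16 crosslinkers, tropomyosins and linkers, 7, 13, 11 and 10 were lower and 2, 2, 1 and 3 higher. Of 11 other tubulins tested, 0, 4, 2 and 1 were lower and 3, 4, 4 and 4 higher. Of 13 genes for microtubule-associated proteins, 3, 7, 4 and 5 were lower and 6, 5, 4 and 4 higher. Of 7 intermediate filament genes, 2, 4, 2 and 4 were lower and 1, 1, 0 and 1 higher.

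The ratio of PFN1 to TMSB10 CPM, both of which bind actin monomers, was 2.08 ± 0.0610 (SD, n = 3) in non-transfected pull-downs, 3.41 and 3.49 in cytosolic, 2.83 to 3.42 in nuclear, 3.41 and 3.60 in mitochondrial and 5.14 and 6.08 in nucleolar pull-downs, and 1.77 to 2.55 in the inputs.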
